A study of Homo sapiens with 24 samples.

Results

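Human chromosome 19 carries large clusters of zinc finger genes on both arms, and the expression of those with a plain ZNF symbol was followed here through loss of ID3 and through mocetinostat treatment. The genes were all entries of the deposited gene tables on chromosome 19 whose name was ZNF followed by digits and at most 1 letter, which gave 267 entries of 57820 genes. The choice used names and positions only, not expression. The 267 entries carried 261 distinct symbols, since 6 symbols stood at 2 identifiers each, and 11 entries had a symbol ending in P, the mark of a pseudogene. A further 297 ZNF genes of other chromosomes and 2643 other genes of chromosome 19 served for comparison.

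The libraries came from human osteosarcoma cells, either U2OS or AID-DIvA, a U2OS derivative that carries the restriction enzyme AsiSI under the control of tamoxifen so that DNA breaks can be induced. Each line was used as wild type (WT) and as ID3-KO, in which the gene for the helix-loop-helix inhibitor ID3 had been edited. Whether the knockout was 1 clone was not given in the sources used here. Cells were left untreated or received mocetinostat, an inhibitor of class I histone deacetylases, for 24 h. The titles and the study's text call the controls untreated, the word used below, whereas headings in its supplement name them DMSO. Whether they received the solvent is therefore uncertain. The AID-DIvA cells then recovered for 24 h without drug. The study's methods describe sampling both straight after treatment and after recovery without naming the line for each, and since only titles of AID-DIvA libraries name recovery, the U2OS libraries are treated here as taken before it. Library names in the labels of the U2OS samples also carry the tag DivA_U2OS, so it is uncertain whether they came from a line other than AID-DIvA, and "both lines" is used below in the sense of the titles. Each of the 8 groups held 3 libraries, 24 in all. Cell line and time of sampling coincided throughout, so an effect of recovery and a difference between the lines cannot be told apart. For the 12 AID-DIvA libraries a treatment field in the labels contradicted the titles, and the titles were followed. The study describes the libraries of a condition as biological replicates from independent experiments.

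Most zinc finger proteins encoded on chromosome 19 join an array of DNA-binding C2H2 zinc fingers to a KRAB domain. The KRAB domain binds the corepressor TRIM28 (KAP1), which brings the histone methyltransferase SETDB1, HP1 proteins and the deacetylase complex NuRD to DNA, so that many of these proteins silence transposable elements. The genes arose by tandem duplication, lie in clusters of close relatives, and share long stretches of coding sequence, so that reads can be hard to place between relatives. Their own bodies are often packed in heterochromatin that other members of the family help to maintain.

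Library depth ranged from 37878751 to 76906266 counts (median 56215342), of which the 267 genes took 87157 to 220217 counts, or 0.207% to 0.298%. ID3 was checked in every library. In WT AID-DIvA it had 2371, 2994 and 3284 counts untreated against 1941, 2344 and 2057 in ID3-KO, and in untreated U2OS 5211, 3938 and 2750 counts against 1663, 1789 and 1642. After mocetinostat and recovery it had 5462, 5596 and 6801 counts in WT and 2360, 4050 and 3042 in ID3-KO, and in treated U2OS 5843, 3953 and 5898 against 2415, 1656 and 2326. ID3 transcript was thus present in the knockout, with untreated log2 differences of −0.56 in AID-DIvA and −1.03 in U2OS. The study checked the knockout at the protein level, by Western blot in both lines, and transcript counts do not measure that. Replicate 1 of untreated WT U2OS stood apart from its fellows. A chi-square of their counts came to 103 and 91.1 per gene against replicates 2 and 3, while every other pair of replicates lay between 2.79 and 27.3. The main results that use this library are also given without it. The summed level of markers of osteosarcoma lines (VIM, SPARC, FN1 and 5 others) was 2662 to 5567 CPM (counts scaled to library size). Among them, however, COL1A2 was between 0.05 and 1.42 CPM, ALPL between 0.58 and 6.74 CPM and RUNX2 between 12.2 and 49.6 CPM. Markers of epithelial, blood, vessel and nerve cells were EPCAM, CDH1, PTPRC, CD3E, CDH5, SYP and SNAP25. PECAM1, also listed, had no entry under that name. The markers summed to 18.8 to 32.7 CPM untreated, to 50.001 to 64.96 CPM after treatment and recovery and to 92.4 to 123 CPM before recovery. Most of this was SYP (4.09 to 97.4 CPM), while CD3E had at most 3 counts in a library. Their part in the results was not tested.

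Along chromosome 19 (GRCh37, the build of the deposited tables) the genes fell into 17 groups separated by more than 1 Mb without a member. Of these, 7 groups with 10 or more genes held 244 of the 267. They are named here by their first and last gene. ZNF557 to ZNF846 (chr19:7069455-9903856) held 17 genes, ZNF653 to ZNF791 (chr19:11594242-12750912) held 30, and ZNF101 to ZNF254 (chr19:19779605-24312654) held 41. On the long arm, ZNF565 to ZNF573 (chr19:36673188-38307940) held 26, ZNF575 to ZNF296 (chr19:44029649-45579846) held 26, ZNF175 to ZNF331 (chr19:52074551-54083523) held 43, and ZNF628 to ZNF446 (chr19:55987699-58992597) held 61. Of all 267 genes, 145 lay on the plus strand and 122 on the minus strand. A gene of the opposite strand overlapped 139 of them and another gene of the same strand overlapped 114, while 76 overlapped none. The counts tested were those of either strand, and 94.3% to 96.0% of the genes' counts came from the strand the kit assigns to the transcript.

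Levels per length, as the deposited TPM values, were low for most of the genes. The median of the 267 mean TPM values was 3.82, with 197 genes at 1 TPM or above, 57 at 10 or above and 46 under 0.1. A count was seen in all 24 libraries for 218 genes and in none for 9. ZNF146, which codes for a protein made almost wholly of zinc fingers without a KRAB domain, had the highest level at 107 TPM on average (74.5 to 136 over libraries). ZNF404 followed at 55.8 TPM (20.4 to 115), then ZNF45 at 45.2 (29.05 to 54.2), ZNF358 at 39.9 (26.5 to 81.6) and ZNF581 at 34.2 (27.4 to 50.8). The ranges of these last 4 overlapped, so their order does not hold in each library. Of the 41 genes between ZNF101 and ZNF254, only 15 or 16 had enough counts to be tested in any treatment comparison. ZNF93, known for silencing a class of LINE elements, was among the silent genes with 0 or 1 count per library. Its relative ZNF91, which silences SVA elements and lies in the same positional group, was expressed at 2.41 to 5.62 CPM.

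Promoters of RefSeq (GRCh38.p14, 250 bases before to 50 after the annotated start) were found for 217 of the 267 genes, 214 of them distinct. The hexamer CCGGAA, searched on both strands, occurred in 120 of the 214 windows (56.1%) against 17.6% of all 27305 windows. Searched in the same way, the GC box GGGCGG occurred in 145 (67.8%) against 44.6%, and TATAAA in 4 (1.87%) against 11.95%. The median number of CpG dinucleotides per window was 20 against 14 in all windows, although GC content was close, at 59.8% and 58.3%. These matches describe letters and do not show that a factor binds. The 250 bases before the start are printed below for 6 genes on which the comparisons turn, 5′ to 3′ on the gene's strand, with CpG dinucleotides in capitals. They were chosen to set genes that rose beside genes that fell. ZNF554 (chr19:2819618-2819867, plus) rose in every treatment comparison, and ZNF708 (chr19:21329411-21329660, minus), with the fewest CpGs of the 6, fell after recovery. The TATAAA of ZNF708 lies on the opposite strand and reads TTTATA in the printed bases. ZNF844 (chr19:12064481-12064730, plus) was higher before and lower after recovery. ZNF560 (chr19:9498617-9498866, minus) and ZNF540 (chr19:37551124-37551373, plus) were near silent untreated and rose before recovery, while ZNF428 (chr19:43619630-43619879, minus) fell in every treatment comparison. The printed stretches hold 26 CpGs for ZNF554, 3 for ZNF708, 13 for ZNF844, 14 for ZNF560, 25 for ZNF540 and 30 for ZNF428.
ZNF554: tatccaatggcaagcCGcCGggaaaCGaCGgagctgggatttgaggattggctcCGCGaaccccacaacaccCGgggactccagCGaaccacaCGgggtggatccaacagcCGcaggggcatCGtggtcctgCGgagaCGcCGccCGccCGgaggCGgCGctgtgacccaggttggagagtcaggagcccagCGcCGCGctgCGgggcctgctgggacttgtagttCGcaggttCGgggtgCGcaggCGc
ZNF708: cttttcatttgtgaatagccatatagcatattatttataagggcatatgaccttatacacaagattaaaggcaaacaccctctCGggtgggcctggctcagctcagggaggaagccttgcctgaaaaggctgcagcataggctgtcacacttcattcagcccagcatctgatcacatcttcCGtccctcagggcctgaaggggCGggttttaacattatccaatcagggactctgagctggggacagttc
ZNF844: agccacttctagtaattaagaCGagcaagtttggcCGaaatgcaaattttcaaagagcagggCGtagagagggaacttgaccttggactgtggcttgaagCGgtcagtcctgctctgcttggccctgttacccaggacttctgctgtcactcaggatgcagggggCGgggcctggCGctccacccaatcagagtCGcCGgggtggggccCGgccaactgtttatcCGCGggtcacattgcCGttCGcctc
ZNF560: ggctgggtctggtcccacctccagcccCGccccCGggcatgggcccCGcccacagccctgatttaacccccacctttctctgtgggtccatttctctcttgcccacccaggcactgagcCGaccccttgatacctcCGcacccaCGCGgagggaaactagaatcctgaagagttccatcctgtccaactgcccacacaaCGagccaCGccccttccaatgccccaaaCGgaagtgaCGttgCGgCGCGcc
ZNF540: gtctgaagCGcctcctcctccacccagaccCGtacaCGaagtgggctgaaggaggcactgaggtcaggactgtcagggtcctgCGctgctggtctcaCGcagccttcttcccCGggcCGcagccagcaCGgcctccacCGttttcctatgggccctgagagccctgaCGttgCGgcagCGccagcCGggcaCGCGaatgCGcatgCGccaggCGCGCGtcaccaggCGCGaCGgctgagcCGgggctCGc
ZNF428: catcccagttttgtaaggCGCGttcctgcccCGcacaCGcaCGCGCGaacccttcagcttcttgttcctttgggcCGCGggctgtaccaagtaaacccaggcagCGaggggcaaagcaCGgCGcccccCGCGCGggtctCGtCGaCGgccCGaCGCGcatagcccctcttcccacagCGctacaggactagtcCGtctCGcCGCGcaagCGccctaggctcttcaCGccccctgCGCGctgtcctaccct

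After mocetinostat and recovery, the chromosome 19 ZNF genes were mostly lower than in untreated cells, in WT and ID3-KO AID-DIvA alike. In WT, 87 of 214 tested genes fell (40.7%) and 21 rose (9.81%) by edgeR's quasi-likelihood test at a Benjamini-Hochberg adjusted p below 0.05, while 23.0% of all genes tested fell and 23.9% rose. In ID3-KO, 81 of 217 fell (37.3%) and 12 rose (5.53%), against 19.9% and 20.2% of all genes. The median log2 difference was −0.17 in WT and −0.22 in ID3-KO, beside 0.00 and −0.02 over all genes. The changes were small. Beyond 1 on the log2 scale, 7 genes fell and 2 rose in WT, where 2.52% and 4.86% of all genes did, and 9 fell and 3 rose in ID3-KO, beside 2.56% and 4.9%. The share of all counts taken by the 267 genes went from 0.254% ± 0.006 (SD, n = 3) to 0.234% ± 0.003 in WT and from 0.281% ± 0.007 to 0.248% ± 0.016 in ID3-KO. Other genes of chromosome 19 leaned the other way, with 418 of 1201 higher and 164 lower in WT (median 0.10). ZNF genes of other chromosomes leaned down less, with 85 of 253 lower and 36 higher in WT (median −0.09).

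Large falls lay in the group between ZNF653 and ZNF791 and in that between ZNF101 and ZNF254. Single genes are named here where their mean reached 1 CPM. ZNF844 (chr19:12175514-12192380) had 6.66, 5.88 and 5.68 CPM in untreated WT and 2.24, 2.18 and 2.53 CPM after recovery. In ID3-KO it had 7.34, 7.74 and 6.80 CPM untreated and 2.33, 3.31 and 3.28 CPM after recovery. The groups did not overlap in either genotype, and the log2 difference was −1.37 (SE 0.10, adjusted p = 2.36e-07) in WT and −1.28 (SE 0.13, adjusted p = 5.05e-05) in ID3-KO, both by edgeR's quasi-likelihood test. ZNF708 (chr19:21473962-21512227), whose promoter above is poor in CpG, went from 2.49, 1.90 and 2.39 CPM to 0.88, 0.92 and 0.98 CPM in WT. In ID3-KO its libraries went from 2.40, 2.16 and 1.84 CPM to 0.74, 1.14 and 1.28 CPM. Each treated library lay under each untreated one, with log2 differences of −1.27 (SE 0.15) and −0.99 (SE 0.18). ZNF69, 1 of the genes that fell in all 4 treatment comparisons, was at 1.94, 1.95 and 1.93 CPM in untreated WT and 0.71, 0.99 and 0.95 CPM after recovery. ZNF433 fell by 0.88 and 0.95 on the log2 scale in WT and ID3-KO. In ID3-KO the named falls included ZNF441 (−1.10) and ZNF443 (−1.08), which fell by 0.70 and 0.77 in WT.

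ZNF404 (chr19:44376515-44405537), the second most abundant of the genes per length, also fell. It had 72.5, 75.3 and 85.1 CPM in untreated WT AID-DIvA and 43.5, 42.2 and 38.5 CPM after recovery. In ID3-KO it had 79.5, 78.8 and 72.1 CPM untreated and 17.5, 33.2 and 39.6 CPM after recovery. All treated libraries were lower than all untreated ones, but the 3 recovered ID3-KO libraries spread widely, with replicate 1 the lowest. The log2 difference was −0.90 (SE 0.07) in WT and −1.35 (SE 0.23) in ID3-KO.

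Few genes rose after recovery, and ZNF114 had the highest rise in both genotypes. ZNF114 (chr19:48675575-48790865), a KRAB gene outside the groups listed above, had 4.68, 5.35 and 4.97 CPM in untreated WT and 14.9, 15.3 and 14.5 CPM after recovery. The ID3-KO libraries had 5.29, 4.91 and 4.24 CPM untreated and 18.8, 19.2 and 16.9 CPM after recovery. Treated and untreated libraries were far apart, and the log2 differences were 1.58 (SE 0.07, adjusted p = 2.43e-09) and 1.92 (SE 0.10, adjusted p = 8.24e-07) by edgeR's quasi-likelihood test. Genes of both strands overlap ZNF114. ZNF554 (chr19:2819872-2835771), which no other gene overlaps, rose from 1.99, 2.07 and 2.11 CPM to 4.50, 3.82 and 4.41 CPM in WT and from 2.01, 1.97 and 2.31 CPM to 5.47, 4.74 and 4.49 CPM in ID3-KO. Its log2 differences were 1.05 (SE 0.11) and 1.22 (SE 0.12). ZNF835 rose by 0.63 and 0.53 on the log2 scale, ZNF587B by 0.57 and 0.32, and ZNF296 by 0.54 and 1.05. ZNF418 had a log2 difference of 0.55 in ID3-KO (adjusted p = 0.0426), a call lost in 5 of the 6 fits that left out 1 library and in 2 other alternatives, and of 0.33 (adjusted p = 0.313) in WT.

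**Figure D1:**
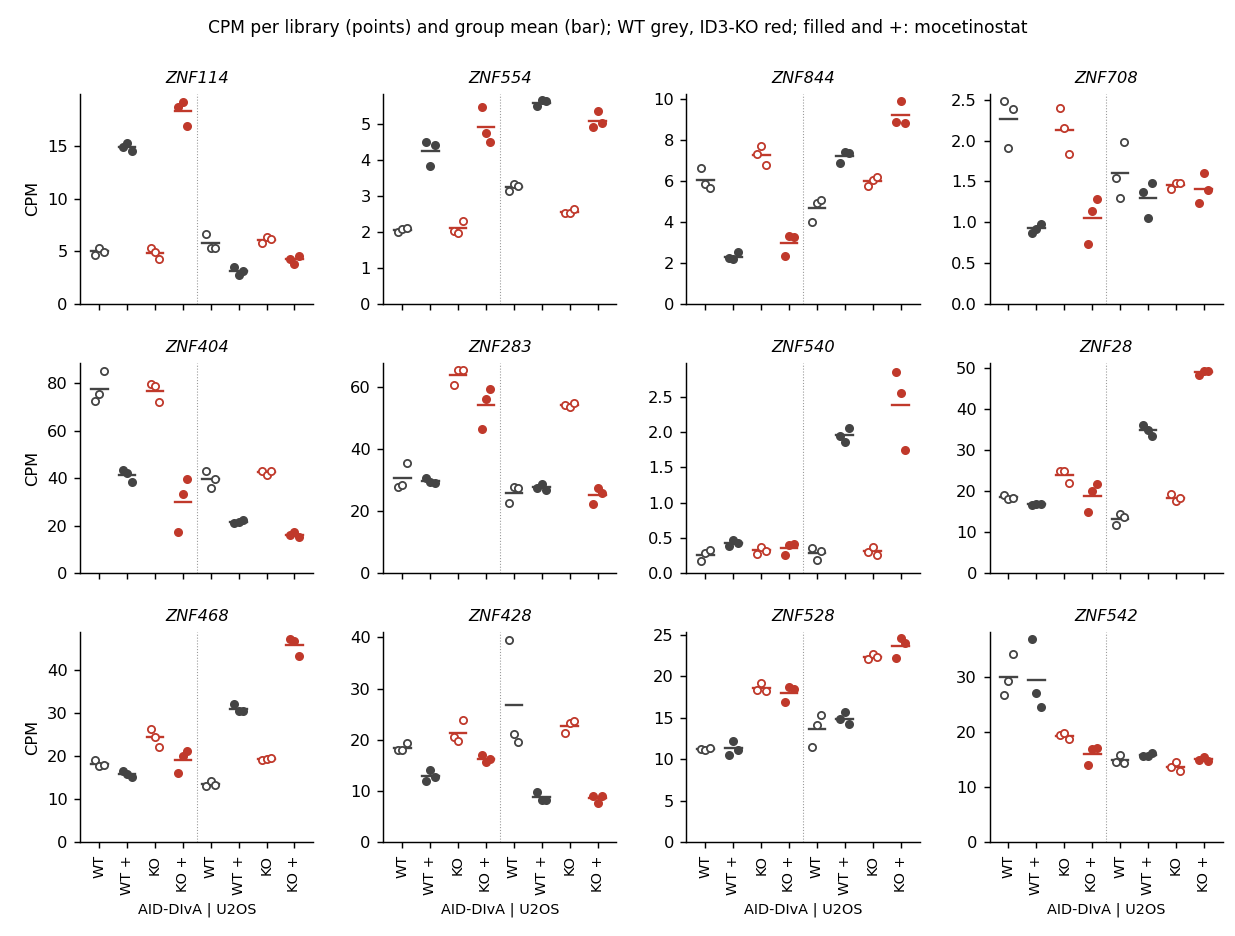
CPM of 12 chromosome 19 ZNF genes in each library (points) with the group mean (bar), WT in grey and ID3-KO in red, mocetinostat-treated groups filled and marked with a plus sign, AID-DIvA on the left and U2OS on the right of each panel. ZNF114 rises from 4.24–5.35 CPM to 14.5–19.2 CPM in AID-DIvA and falls in U2OS, ZNF28 and ZNF468 rise in U2OS, and ZNF428 in untreated WT U2OS has replicate 1 at 39.4 CPM, above the libraries at 21.2 and 19.6 CPM.

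WT and ID3-KO shared most of these changes. Of the genes that fell, 64 fell in both genotypes, 73.6% of the 87 in WT and 79.0% of the 81 in ID3-KO. Of those that rose, 11 rose in both, and none changed in opposite directions. The overlap of calls was not counted over all genes. Over the 214 genes tested in both, the log2 differences correlated at Pearson's r = 0.86, beside 0.87 over all 19755 genes tested in both. These comparisons share no library, but the genes are not independent replicates.

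The counts differed between positional groups. Between ZNF101 and ZNF254, 12 of 15 tested genes fell in WT and 12 of 16 in ID3-KO, with medians of −0.57 in each, and every tested gene there had a log2 difference below 0. They included ZNF91 (−0.26 and −0.57, calls lost in 5 and 3 of the 6 fits that left out 1 library), ZNF100 (−0.67 and −0.57), ZNF254 (−0.78 and −0.89) and ZNF429 (−0.99 and −1.24). Between ZNF653 and ZNF791, 13 of 22 fell in WT and 12 of 23 in ID3-KO (medians −0.45 and −0.46). Between ZNF175 and ZNF331, 22 of 38 and 18 of 39 fell and none rose (medians −0.23 and −0.32). In the most distal group, ZNF628 to ZNF446, 14 of 59 fell and 10 rose in WT, and 14 fell and 6 rose in ID3-KO, with medians of 0.00 and −0.04. The counts in ID3-KO depended on single libraries. Between ZNF175 and ZNF331 only 4 and 3 genes fell without untreated replicates 1 and 2, and 11 without treated replicate 2, while in WT 15 to 22 fell with any 1 library left out. The median there stayed between −0.37 and −0.22 in ID3-KO. Between ZNF101 and ZNF254, 7 to 12 fell in ID3-KO (7 without untreated replicate 2 and 8 without treated replicate 2), and 1 of the 16 genes was above 0 without that untreated library or without treated replicate 1. ZNF628 to ZNF446 had 5 to 11 lower and 3 to 8 higher genes in ID3-KO, with the fewest lower (5 and 6) without untreated replicates 2 and 1. The other genes inside these spans differed from group to group. Inside ZNF101 to ZNF254, 6 of 13 tested other genes fell and none rose in WT (median −0.54), and 3 of 10 fell in ID3-KO (median −0.45). Inside ZNF653 to ZNF791, none of 9 tested other genes fell and 2 rose in each genotype.

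**Figure D2:**
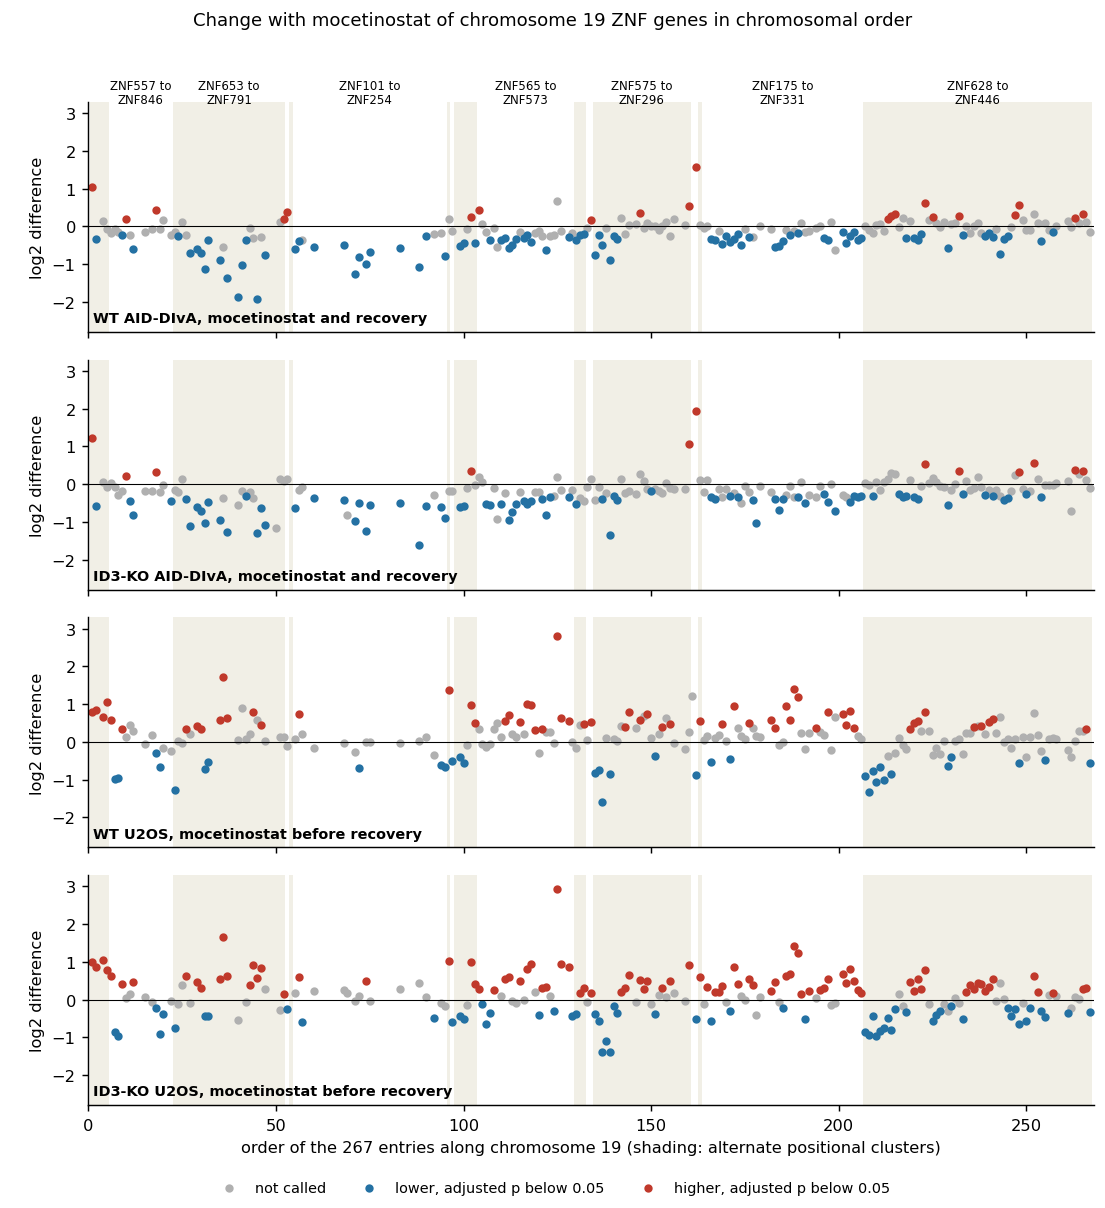
Log2 difference (treated minus untreated) of each tested chromosome 19 ZNF gene, in chromosomal order of the 267 entries with alternate positional clusters shaded, for the 4 treatment comparisons; colour marks an adjusted p below 0.05, and ZNF560 is left out. After recovery every point between ZNF101 and ZNF254 lies below 0, and before recovery the points between ZNF175 and ZNF331 lie mostly above 0 (medians 0.24 and 0.23).

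Base composition also went with the fall. GC content of the gene bodies ranged from 33.6% to 68.3% (median 43.6%), and 27 tested genes had at least 50%. Of these 27, 9 rose and 4 fell in WT (median 0.00), whereas of the 187 below 50% GC, 12 rose and 83 fell (median −0.19). In ID3-KO the counts were 5 higher and 2 lower of 27, against 7 higher and 79 lower of 190 (median −0.27). Over all genes the same division gave medians of 0.06 and −0.03 in WT and of 0.11 and −0.09 in ID3-KO. In WT 1102 of 6722 genes with at least 50% GC fell, against 3558 of 13530 below 50%. In ID3-KO the counts were 785 of 6829 against 3257 of 13496. By promoter CpG, 22 of 36 tested genes with under 15 CpGs fell in WT (median −0.34), against 36 of 90 with 15 to 24 (median −0.18) and 20 of 60 with 25 or more (median −0.11). In ID3-KO 20 of 38, 30 of 91 and 19 of 60 fell. Across genes, promoter CpG count and log2 difference correlated at r = 0.39 in WT (n = 186) and 0.40 in ID3-KO (n = 189), as a description, since genes of 1 cluster share sequence and these measures share the same libraries. Mean level correlated with the log2 difference at r = 0.32 in each genotype.

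Before recovery, in U2OS cells still under mocetinostat, these genes leaned the other way, with more of them higher than lower. In WT, 62 of 217 rose (28.6%) and 33 fell (15.2%), beside 26.0% and 22.9% of all genes, so the share that rose was near the background and the share that fell under it. In ID3-KO, 92 of 215 rose (42.8%) and 59 fell (27.4%), beside 35.8% and 34.0% of all genes. The medians were 0.15 and 0.10 against 0.01 and 0.00 over all genes. Beyond 1 on the log2 scale, 8 rose and 5 fell in WT, where 13.6% and 5.06% of all genes did, and 7 rose and 3 fell in ID3-KO, beside 14.6% and 5.77%. Large changes were thus a smaller share of these genes than of all genes. Without replicate 1 of untreated WT U2OS, the counts in WT were 81 higher and 53 lower of 220 (36.8% and 24.1%) and the median 0.08, beside 33.9% and 32.5% of all genes. Of the genes that rose, 60 rose in both genotypes (96.8% of the 62 and 65.2% of the 92), and 29 fell in both (87.9% of 33 and 49.2% of 59). The log2 differences correlated at r = 0.93 over 214 genes, beside 0.92 over all 20810 genes tested in both. The overlap of calls was again not counted over all genes.

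ZNF560 (chr19:9577183-9609283) was nearly silent in untreated cells and counted in every U2OS library under mocetinostat. It had 3, 4 and 1 counts in untreated WT U2OS and 143, 100 and 168 counts under mocetinostat. In ID3-KO it had 0, 0 and 2 counts untreated and 70, 74 and 71 counts under mocetinostat. Summed over replicates and scaled for depth, the ratio was 54.6 (95% counting interval 27.4 to 127) in WT and 106 (29 to 880) in ID3-KO, intervals that cover counting error only. In AID-DIvA after recovery no such rise was seen, with 10 counts untreated and 3 after recovery in WT, and 4 and 6 in ID3-KO.

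ZNF540 (chr19:38042308-38104998), a KRAB gene with several overlapping genes, went from 0.36, 0.18 and 0.31 CPM to 1.95, 1.86 and 2.05 CPM in WT U2OS and from 0.30, 0.37 and 0.26 CPM to 2.85, 2.56 and 1.74 CPM in ID3-KO. The groups lay far apart, and the log2 differences were 2.79 (SE 0.24, adjusted p = 7.03e-05) and 2.93 (SE 0.23, adjusted p = 1.37e-10) by edgeR's quasi-likelihood test. In AID-DIvA after recovery the log2 differences were 0.68 (adjusted p = 0.0589) and 0.18 (adjusted p = 0.609). ZNF878 rose as well, by 1.71 and 1.65 on the log2 scale. ZNF536, which represses neuronal differentiation and stands alone on the long arm, rose by 1.37 and 1.03. ZNF540, ZNF878 and ZNF536 had log2 differences of 3.01, 1.72 and 1.36 in WT without replicate 1 of untreated WT U2OS, all still past the threshold. ZNF28 and ZNF468 lie on the same strand between ZNF175 and ZNF331 and overlap, so their reads could not be cleanly divided. ZNF28 had 11.6, 14.3 and 13.7 CPM in untreated WT U2OS and 36.2, 35.0 and 33.4 CPM under mocetinostat, and 19.2, 17.7 and 18.3 against 48.1, 49.2 and 49.3 CPM in ID3-KO. ZNF28 rose by 1.40 and 1.41 and ZNF468 by 1.20 and 1.24 on the log2 scale, and in WT by 1.31 and 1.17 without that library. At the start of the short arm, all 4 tested genes of the group from ZNF554 to ZNF77 rose in both genotypes. Those were ZNF554 (0.79 and 0.99), ZNF555 (0.85 and 0.85), ZNF57 (0.65 and 1.06) and ZNF77 (1.05 and 0.77). In WT without that library they rose by 0.76, 0.94, 0.63 and 1.01.

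Falls before recovery were more frequent among genes with GC-rich bodies. Of the 27 tested genes with at least 50% GC, 14 fell and 5 rose in WT (median −0.57), and 17 fell and 7 rose in ID3-KO (median −0.38), whereas 19 of 190 and 42 of 188 genes under 50% GC fell (medians 0.18 and 0.16). In WT 14 of 27 and 39 of 193 fell when replicate 1 of untreated WT U2OS was left out. Over all genes and with all libraries, 1999 of 7435 with at least 50% GC fell in WT, against 2996 of 14325 below 50%. In ID3-KO these counts were 2837 of 7198 against 4366 of 13941. Many of the 27 genes lie between ZNF628 and ZNF446, so GC content and position were not separated. ZNF428 (chr19:44111371-44124026), with the most CpGs of the promoters printed above, had 39.4, 21.2 and 19.6 CPM in untreated WT U2OS and 9.92, 8.34 and 8.26 CPM under mocetinostat. In ID3-KO it had 21.3, 23.2 and 23.8 CPM untreated and 9.13, 7.61 and 9.09 CPM under mocetinostat. Treated libraries were all lower, and the log2 differences were −1.59 (SE 0.26) and −1.40 (SE 0.07). In WT the value rests partly on replicate 1, and without it the difference was −1.21 (SE 0.07). ZNF579, ZNF653, ZNF865 and ZNF580 fell by 1.32, 1.27, 1.06 and 1.01 in WT, and by 1.06, 0.99, 0.84 and 0.72 without that library. In ID3-KO the same 4 genes fell by 0.95, 0.74, 0.96 and 0.75, and ZNF414 by 0.97. ZNF404 fell by 0.86 in WT and 1.39 in ID3-KO.

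Between ZNF175 and ZNF331, 15 of 39 rose and 2 fell in WT, and 25 rose and 4 fell in ID3-KO (medians 0.24 and 0.23). Between ZNF565 and ZNF573, 10 of 25 rose and none fell in WT (median 0.32), and 12 of 24 rose and 6 fell in ID3-KO (median 0.23). Between ZNF101 and ZNF254, where all tested genes were lower after recovery, 1 rose and 3 fell of 15 in WT and 2 rose and 2 fell of 16 in ID3-KO. The distal group ZNF628 to ZNF446 had 9 higher and 12 lower of 59 in WT and 18 higher and 25 lower in ID3-KO. Without replicate 1 of untreated WT U2OS, the counts in WT were 17 higher and 3 lower between ZNF175 and ZNF331 (median 0.21), 12 and 4 between ZNF565 and ZNF573 (median 0.17), and 15 and 20 from ZNF628 to ZNF446, where the median went from 0.07 to −0.06. Without treated WT replicates 1, 2 and 3 that last group had 3, 5 and 3 higher genes. Scaled by library totals alone, 6 rose and 1 fell between ZNF101 and ZNF254 in ID3-KO.

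**Figure D3:**
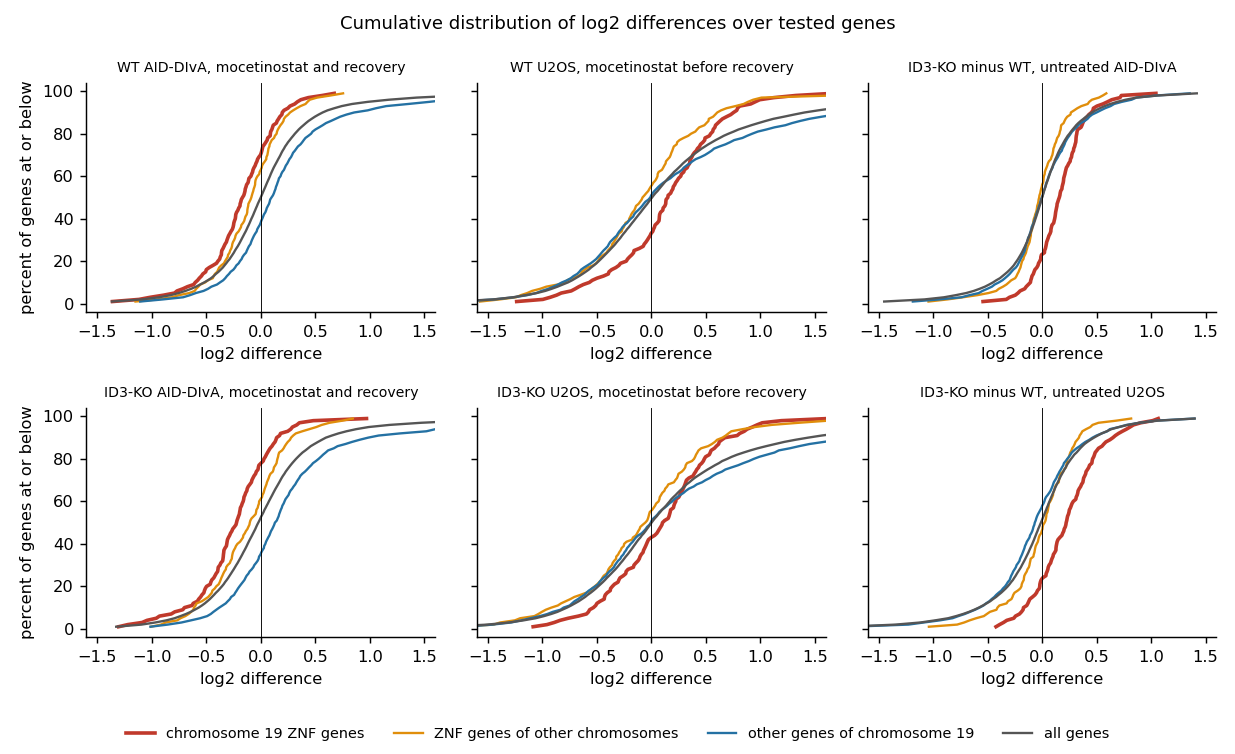
Cumulative distributions of the log2 difference (horizontal axis) over tested genes (percent at or below, vertical axis) for chromosome 19 ZNF genes, ZNF genes of other chromosomes, other genes of chromosome 19 and all genes, in 6 comparisons. The curve of the chromosome 19 ZNF genes lies left of that of all genes after recovery (medians −0.17 and −0.22). Before recovery its median is higher (0.15 and 0.10) but its upper tail is shorter, and for untreated ID3-KO minus WT it lies to the right at the median (0.16 and 0.22).

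The response after recovery in AID-DIvA was set against the response before recovery in U2OS by testing the difference of the 2 responses. In WT, 99 of 220 genes had a lower response after recovery than before it (45.0%) and 24 a higher one (10.9%), beside 22.8% and 22.6% of all genes. In ID3-KO it was 95 (43.2%) and 27 (12.3%), beside 24.3% and 21.7%. The medians were −0.33 and −0.29, and −0.01 and −0.04 over all genes. These contrasts hold the difference between the lines as well as that between times. Across genes the 2 responses correlated at r = 0.02 in each genotype over 214 genes, where all genes gave 0.45 in WT and 0.48 in ID3-KO.

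In both genotypes 17 genes were higher before recovery and lower after it, namely ZNF555, ZNF440, ZNF439, ZNF433, ZNF844, ZNF850, ZNF420, ZNF585A, ZNF607, ZNF701, ZNF468, ZNF347, ZNF765, ZNF761, ZNF471, ZNF470 and ZNF211. How many of all genes showed this pattern was not counted, so the 17 cannot be set against a background. ZNF850 (chr19:37205285-37263727) had 16.5 to 17.2 CPM in untreated WT AID-DIvA and 11.1 to 11.3 CPM after recovery, while in WT U2OS it had 9.36 to 12.1 CPM untreated and 17.1 to 19.03 CPM under mocetinostat. The treated libraries were thus all lower in one line and all higher in the other, and the difference of the responses was −1.30 (SE 0.14) in WT and −1.55 (SE 0.14) in ID3-KO. ZNF844 had differences of −2.01 (SE 0.16) and −1.89 (SE 0.15). ZNF420, which codes for a KRAB repressor of p53, rose by 1.01 and 0.80 before recovery and fell by 0.23 and 0.53 after it, although the fall of 0.23 lost its call in 4 of the 6 fits that left out 1 library. The opposite order was rarer. ZNF114 rose after recovery but fell by 0.88 and 0.52 before it, with a difference of 2.46 (SE 0.15) and 2.45 (SE 0.15). ZNF587B and ZNF121 also rose after recovery and fell before it, with differences of 1.14 and 0.73 in WT and of 0.97 and 0.54 in ID3-KO.

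Few genes moved 1 way throughout. ZNF69, ZNF700, ZNF302, ZNF181, ZNF428, ZNF404, ZNF649 and ZNF432 fell in all 4 treatment comparisons, and ZNF554, ZNF30 and ZNF835 rose in all 4. These 8 and 3 genes kept their pattern without replicate 1 of untreated WT U2OS, as did all 17 that were higher before and lower after recovery, and 5, 2 and 2 genes were added. Of the 212 genes tested in all 4, 24 changed in none. These patterns were not counted over all genes either. A further 48 of the 267 genes had too few counts to be tested in any of them.

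**Figure D4:**
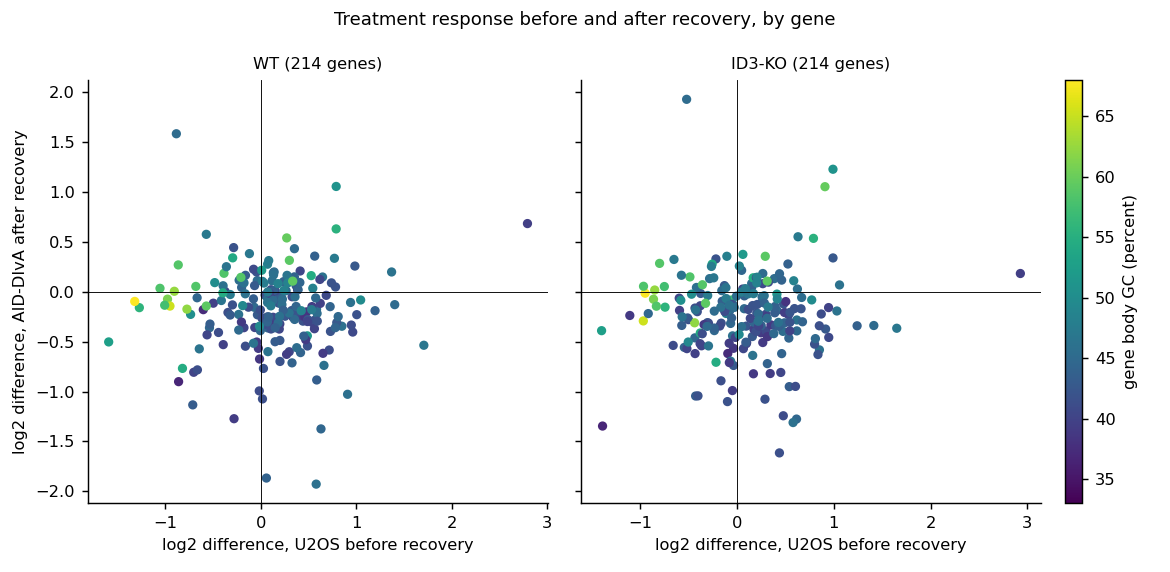
Log2 difference of each gene in U2OS before recovery (horizontal axis) against AID-DIvA after recovery (vertical axis), 1 point per gene and 1 panel per genotype with 214 genes tested in both, coloured by GC content of the gene body in percent; ZNF560 was not tested in AID-DIvA and is left out. The points form no slope (r = 0.02 in each panel), and many GC-rich genes sit at the left, at negative values before recovery.

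Loss of ID3 went with higher levels of these genes in untreated cells of both lines. In AID-DIvA 81 of 218 tested genes were higher in ID3-KO than in WT (37.2%) and 9 lower (4.13%), beside 18.6% and 18.1% of all genes, with a median log2 difference of 0.16 against 0.00. In U2OS 39 of 215 were higher (18.1%) and 0 lower by edgeR's quasi-likelihood test, beside 6.56% and 8.63% of all genes, with a median of 0.22 against −0.01. At an unadjusted p below 0.05, 80 of the 215 differed in either direction, and the count of lower genes reached 3 when all 4 groups of U2OS were fitted together. Other ZNF genes showed no such lean, with 43 higher and 43 lower of 253 in AID-DIvA and 14 higher and 16 lower of 252 in U2OS. Other genes of chromosome 19 had 201 higher and 194 lower in AID-DIvA. The 2 lines share no library, and 33 genes were higher in both, 40.7% of the 81 and 84.6% of the 39. How many of all genes were higher in both was not counted. The log2 differences correlated at r = 0.67 over 215 genes, beside 0.78 over all 19998 genes tested in both. The size of the count in U2OS depends on single libraries. Without replicate 1 of untreated WT U2OS, 83 of 216 genes were higher (38.4%) and 8 lower (3.7%), beside 20.5% and 20.6% of all genes, without replicates 2 and 3 of that group 23 and 24 were higher, and without any 1 of the 3 untreated ID3-KO U2OS libraries 12 were higher.

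The long-arm group ZNF175 to ZNF331 held many of these genes. In AID-DIvA 28 of its 39 tested genes were higher in ID3-KO and 0 lower (median 0.31), and in U2OS 22 of 39 were higher and 0 lower (median 0.44). Each of the 39 genes had a log2 difference above 0 in each line, although 37 did in AID-DIvA without replicate 2 of untreated ID3-KO. Leaving out single libraries gave 20 to 36 higher genes in AID-DIvA and 7 to 32 in U2OS, where the highest count was without replicate 1 of WT, counts of 7, 7 and 8 were without replicates 1, 2 and 3 of ID3-KO, and 12 was without replicate 2 of WT. The neighbouring group ZNF628 to ZNF446 had 27 higher and 3 lower of 59 in AID-DIvA and 12 higher of 59 in U2OS. With 1 library left out it had 19 to 29 higher in AID-DIvA and 2 to 36 in U2OS, with 36 without replicate 1 of WT, 6 without replicate 3 of WT, and 3, 3 and 2 without replicates 1, 2 and 3 of ID3-KO. By contrast, ZNF101 to ZNF254 had 2 higher and 1 lower of 16 in AID-DIvA and 0 of 16 in U2OS. Among other genes inside ZNF175 to ZNF331, 6 of 20 tested were higher in AID-DIvA (median 0.27) and 1 of 20 in U2OS (median 0.11). Other genes inside ZNF628 to ZNF446 leaned up as well. In AID-DIvA 15 of 68 tested were higher and 2 lower (median 0.11, beside 0.16 for the ZNF genes there). In U2OS 8 of 70 were higher and 0 lower (median 0.21, beside 0.25). Whether the lean belonged to the region or to the ZNF genes was not tested. ZNF528 (chr19:52901102-52921665), which no other gene overlaps, had 11.3, 11.2 and 11.4 CPM in untreated WT AID-DIvA and 18.4, 19.2 and 18.3 CPM in ID3-KO. In U2OS it had 11.5, 14.1 and 15.3 CPM in WT and 22.1, 22.7 and 22.4 CPM in ID3-KO. No WT library reached a knockout library in either line, and the log2 differences were 0.73 (SE 0.06, adjusted p = 6.32e-08) and 0.72 (SE 0.11, adjusted p = 0.00578) by edgeR's quasi-likelihood test. ZNF83 differed by 0.62 and 0.88, ZNF415 by 0.71 and 0.74, ZNF701 by 0.54 and 1.02, and ZNF468 by 0.42 and 0.51. The pseudogene ZNF818P differed by 1.16 and 1.66, but it is a short entry of 409 bases with at most 72 counts in a library. In fits without replicate 1 of WT, ZNF528, ZNF83, ZNF415, ZNF701 and ZNF468 differed in U2OS by 0.61, 0.73, 0.76, 0.96 and 0.49, all still past the threshold. ZNF331, an imprinted gene, had 42.1 to 44.5 CPM in WT and 51.9 to 55.1 CPM in ID3-KO AID-DIvA, and 35.2 to 41.2 against 63.7 to 69.3 CPM in U2OS, log2 differences of 0.31 and 0.77 (0.70 in U2OS without replicate 1 of WT).

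**Figure D5:**
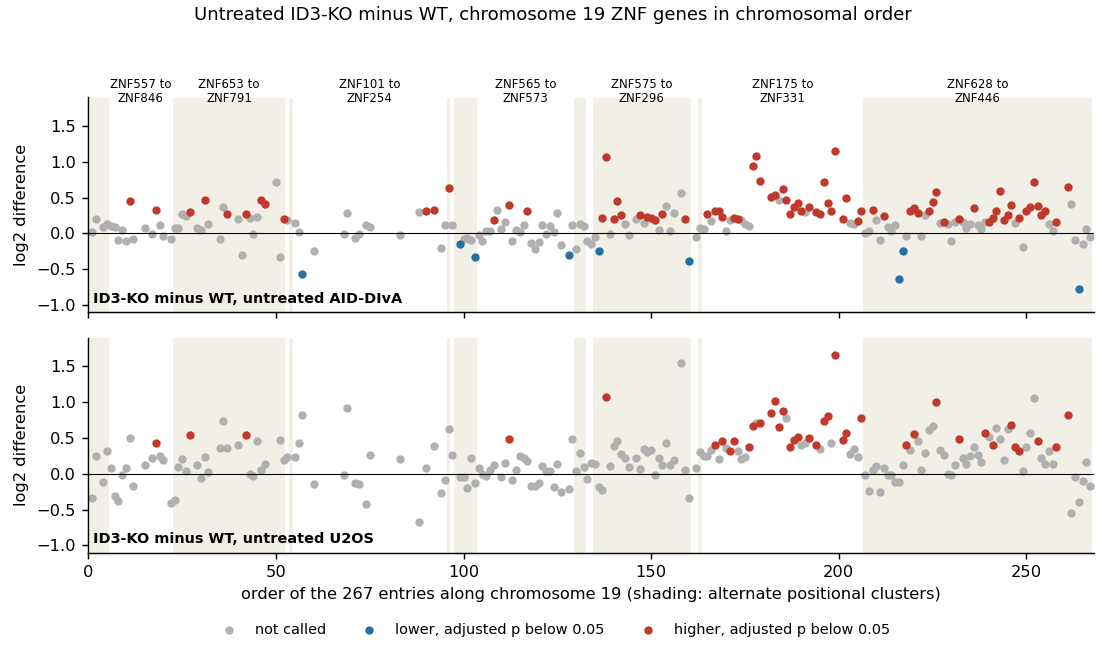
Log2 difference between untreated ID3-KO and WT of each tested chromosome 19 ZNF gene, in chromosomal order of the 267 entries with alternate positional clusters shaded, for AID-DIvA (top) and U2OS (bottom); colour marks an adjusted p below 0.05. All 39 tested genes between ZNF175 and ZNF331 lie above 0 in both panels.

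ZNF283 (chr19:44331444-44353307), between ZNF575 and ZNF296, was higher in ID3-KO in both lines. It had 27.9, 28.5 and 35.4 CPM in untreated WT AID-DIvA and 60.7, 65.3 and 65.6 CPM in ID3-KO. In U2OS it had 22.6, 27.6 and 27.3 CPM in WT and 54.3, 53.4 and 54.7 CPM in ID3-KO. The knockout libraries were all higher, by 1.06 (SE 0.08, adjusted p = 6.20e-08) and 1.07 (SE 0.10, adjusted p = 0.000491) on the log2 scale by edgeR's quasi-likelihood test. Without replicate 1 of WT the difference in U2OS was 0.98. Under mocetinostat this difference was gone in U2OS. WT then had 27.6, 28.8 and 26.7 CPM and ID3-KO 22.2, 27.4 and 25.9 CPM, so the groups overlapped. In recovered AID-DIvA ID3-KO stayed higher, at 46.6, 56.1 and 59.4 CPM against 30.7, 29.3 and 29.2 CPM. The few genes lower in ID3-KO AID-DIvA included ZNF132 (−0.78), ZNF542 (−0.64, with 4 overlapping genes on the opposite strand), ZNF296 (−0.38) and ZNF792 (−0.33). In U2OS their log2 differences were −0.39, −0.12, −0.34 and −0.12, none past the threshold.

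Whether treatment acted differently in ID3-KO and WT was tested by the interaction of genotype and treatment. In AID-DIvA after recovery 0 of 217 genes passed in either direction by edgeR's quasi-likelihood test, beside 0.762% of all genes higher and 0.451% lower. At an unadjusted p below 0.05 there were 10 of the 217, and DESeq2 also called 0. In U2OS before recovery 1 of 219 passed as higher and 3 as lower, beside 1.1% and 1.06% of all genes, with 16 at an unadjusted p below 0.05. ZNF283 had a log2 difference of differences of −1.21 (SE 0.12, adjusted p = 9.92e-05), as its values above show. ZNF404 responded more in ID3-KO U2OS, from 43.2, 41.2 and 42.9 CPM to 16.1, 17.2 and 15.3 CPM, than in WT, from 43.0, 35.9 and 39.8 CPM to 21.3, 21.4 and 22.4 CPM (−0.52, adjusted p = 0.0159). ZNF566 fell in ID3-KO (−0.66) and had a log2 difference of −0.13 in WT (interaction −0.53, adjusted p = 0.0457). ZNF738 fell in WT (−0.70) and had 0.10 in ID3-KO (interaction 0.81, adjusted p = 0.037). Without replicate 1 of untreated WT U2OS, the 4 interactions were −1.11, −0.59, −0.51 and 0.66. In that fit 4 of 221 genes passed as higher (1.81%) and 7 as lower (3.17%), beside 4.46% and 4.56% of all genes. Of the 12 fits that each left out 1 library, ZNF566 lost its call in 11, ZNF738 in 10 and ZNF404 in 4, and ZNF283 kept it in all. All values are from edgeR's quasi-likelihood test.

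Several members have a known role. ZNF274, which binds the 3′ ends of other ZNF genes and brings SETDB1 there, had 30.6 to 37.6 CPM in AID-DIvA and 35.8 to 49.8 CPM in U2OS. Its log2 differences were −0.14 (adjusted p = 0.0277) and −0.02 after recovery and 0.11 and 0.17 (adjusted p = 0.00259) before it, by edgeR's quasi-likelihood test, and the first of these lost its call in 4 of the 6 fits that left out 1 library. ZNF146 differed by at most 0.13 in any treatment comparison, but fell by 0.15 (adjusted p = 0.000201) before recovery in WT without replicate 1 of untreated WT U2OS. ZNF350 (ZBRK1, a partner of BRCA1) had −0.11 and −0.13 after recovery and 0.19 and 0.21 before it. ZNF304 had log2 differences between −0.11 and 0.10. ZNF224 had 1.59 CPM in replicate 1 of untreated WT U2OS against 4.08 and 3.80 CPM in replicates 2 and 3, and 5.05 to 5.07 CPM under mocetinostat. Its log2 difference was 0.69 (adjusted p = 0.099) with that library and 0.35 (adjusted p = 0.00455) without it.

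Among 14 of the genes whose promoters are often methylated in tumours, 13 were tested in AID-DIvA. None rose after recovery, and 5 fell in WT (38.5%) and 6 in ID3-KO (46.2%), near the 40.7% and 37.3% of all the tested chromosome 19 ZNF genes. Before recovery none rose and 1 of 13 fell in WT (3 and 1 without replicate 1 of untreated WT U2OS), and 4 rose and 2 fell of 12 in ID3-KO. ZNF677 was too low to test, with at most 0.10 CPM in a library, and ZNF671 fell after recovery by 0.35 and 0.43. In untreated ID3-KO, 7 of the 13 were higher and 3 lower in AID-DIvA, beside 81 and 9 of the 218, and 3 of 12 were higher in U2OS, beside 39 of the 215. ZNF154 was higher in ID3-KO AID-DIvA by 0.60 (adjusted p = 0.018) and had 0.48 (adjusted p = 0.13) in U2OS.

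The partners of KRAB proteins were followed as a list of 28 corepressor and heterochromatin genes, all tested. After recovery 13 fell (46.4%) and 2 rose (7.14%) in WT, and 11 fell (39.3%) and 2 rose in ID3-KO, where 23.0% of all genes fell and 23.9% rose in WT and 19.9% and 20.2% did in ID3-KO. Before recovery 13 fell (46.4%) and 3 rose (10.7%) in WT, and 18 fell (64.3%) and 9 rose (32.1%) in ID3-KO, beside 22.9% and 26.0% of all genes in WT and 34.0% and 35.8% in ID3-KO. In WT before recovery 19 fell and 5 rose without replicate 1 of untreated WT U2OS. TRIM28 itself, at 349 to 603 CPM, had log2 differences of 0.00 and 0.05 after recovery and fell by 0.36 (adjusted p = 0.0469) and 0.27 (adjusted p = 4.96e-05) before it, by edgeR's quasi-likelihood test. Without that library the fall in WT was 0.20 (adjusted p = 2.83e-07). CBX5, which codes for HP1 alpha, fell in all 4, by 0.51 and 0.63 after recovery and by 1.32 and 1.40 before it. CHD3 (NuRD) and the methyltransferase SUV39H1 fell before recovery by 1.46 and 1.10 in WT, and the DNA methyltransferase DNMT3B rose by 1.10 (without that library CBX5, CHD3, SUV39H1 and DNMT3B had −1.47, −1.52, −0.96 and 0.97). SETDB1 fell in ID3-KO U2OS by 0.62. Others of the list had higher means before recovery. HDAC1 went from 184 to 215 CPM in WT and from 224 to 274 CPM in ID3-KO, and HDAC2 from 135 to 167 and from 152 to 203 CPM. ATF7IP went opposite ways, from 55.2 to 39.7 CPM in WT and from 48.0 to 61.2 CPM in ID3-KO. In untreated ID3-KO, 8 of the 28 were higher (28.6%) and 5 lower (17.9%) in AID-DIvA, beside 18.6% and 18.1% of all genes, and 2 were higher and 1 lower in U2OS (9 and 6 without replicate 1 of WT).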

How the data were processed

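RNA sequencing was carried out by the authors on 24 libraries in 8 groups of 3, from a stranded total RNA kit with paired reads of 100 bases. Per the study's methods the reads went through the Roddy workflow, were aligned with STAR to hg19/GRCh37 and counted per gene with featureCounts. The deposited tables hold raw counts of reads per gene on either strand and on each strand, and TPM computed by the authors. Counts were tested, and TPM served only to compare levels between genes.

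Groups followed the titles of the libraries. Each comparison was fitted over all genes with edgeR 4.0.16 (R 4.3.3; TMM scaling, filterByExpr, robust quasi-likelihood F test, Benjamini-Hochberg adjustment over all genes tested), on the 6 libraries compared, on the 12 of a cell line for interactions and on all 24 for the difference between responses. A gene was called at an adjusted p below 0.05. CPM used TMM factors from the 12 libraries of a line. Library totals ran from 37878751 to 76906266 counts. The standard error is the log2 difference divided by the root of F. Scripts used Python 3.11.15, pandas 2.3.3 and numpy 2.4.6, and the fits were tested on simulated data.

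Alternatives were DESeq2 1.42.0 (the authors' tool), DESeq2 size factors, library totals alone, no filter on low counts, a minimum of 10 counts, reverse-strand counts, all 4 groups of a line in 1 fit, a replicate block, a log2 threshold of 1 and leaving out each library. Single genes were named by rule: in treatment comparisons up to 5 called genes with the largest rise and 5 with the largest fall, at a mean of at least 1 CPM and without overlap between groups. In the other comparisons the rule took up to 4 per direction by adjusted p, and it added the 5 highest by TPM and a list of genes with known roles. Further genes, such as those filling a pattern or a positional group, were named after their values were seen. The genes and lists were chosen with earlier results of these data known. Same-numbered libraries did not deviate together (correlations of −0.31 to 0.26 over 36 pairs, 6 of them over 0.1), so numbers were not taken as pairs.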

Additional observations from a re-analysis of the deposited data

Results flagged for a closer look

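The response to mocetinostat differed between ID3-KO and WT U2OS for 4 genes by the interaction test (edgeR's quasi-likelihood test). The log2 difference of differences was 0.81 for ZNF738, −1.21 for ZNF283, −0.52 for ZNF404 and −0.53 for ZNF566. Of the 12 fits that each left out 1 library, the call was lost in 10 for ZNF738 (and in 1 other alternative), in 11 for ZNF566 (and in 2 others) and in 4 for ZNF404, and ZNF283 kept it under all.

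The response after recovery in AID-DIvA differed from that before recovery in U2OS for many genes, and those with the smallest adjusted p are listed. In WT the difference was 2.46 for ZNF114, 1.14 for ZNF587B, 0.73 for ZNF121 and 1.22 for ZNF579. It was −2.01 for ZNF844, −1.39 for ZNF468, −1.53 for ZNF28 and −1.28 for ZNF841. In ID3-KO it was 2.45 for ZNF114, 0.97 for ZNF587B, 0.87 for ZNF283 and 1.02 for ZNF865, and −1.58 for ZNF468, −1.75 for ZNF28, −1.89 for ZNF844 and −1.55 for ZNF850. Cell line and time of sampling cannot be told apart in these values, and ZNF28 and ZNF468 share overlapping sequence on 1 strand.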

How the results depend on the processing

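No called value of a named gene changed sign under the alternatives run, whereas some medians near 0 of positional groups did. The median of ZNF628 to ZNF446 after recovery in WT was 0.00 and became −0.01 with library totals alone, and that of ZNF101 to ZNF254 in untreated AID-DIvA went from 0.05 to −0.03 without ID3-KO replicate 2. With a log2 difference beyond 1 required as well, the counts higher and lower were 2 and 7 (WT) and 3 and 9 (ID3-KO) after recovery. Before recovery they were 8 and 5 (WT) and 7 and 3 (ID3-KO). Untreated ID3-KO minus WT gave 3 and 0 of 218 in AID-DIvA, beside 465 and 471 of all 20441 genes. In U2OS it gave 4 and 0 of 215, beside 292 and 586 of all 20621. The U2OS interaction gave 0 and 1 of 219, beside 102 and 52 of all 22647. The difference between responses gave 7 and 28 of 220 in WT, beside 1206 and 2446 of all 23087 genes. In ID3-KO it gave 4 and 29 of 220, beside 1298 and 2540 of all 23087. DESeq2 gave 4 lower genes for untreated ID3-KO in AID-DIvA and 5 lower for the U2OS interaction. For untreated ID3-KO in U2OS, reverse-strand counts gave 1 lower gene, and all 4 groups in 1 fit gave 68 higher and 3 lower. Without a filter the AID-DIvA interaction had 1 lower gene. The cause was not tested.

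The replicate block, although numbers did not pair libraries, gave 0 higher genes for the U2OS interaction and 26 higher for untreated ID3-KO in U2OS, and 13 of 39 between ZNF175 and ZNF331 in U2OS. Of 141 results for named genes, 135 kept their call under the block and 6 lost it. Over all alternatives, 2144 of 2257 such values kept direction and call, 102 lost the call and 11 gained one.

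Leaving out single libraries gave 7 to 16 higher and 41 to 75 lower genes after recovery in ID3-KO (41 without untreated replicate 2, 46 without untreated replicate 1, 7 without treated replicate 2). Before recovery in WT it gave 42 to 81 higher and 24 to 53 lower (81 and 53 without untreated replicate 1). For untreated ID3-KO in AID-DIvA it gave 54 to 101 higher and 3 to 11 lower (3 lower without WT replicate 2 and 5 lower without WT replicate 1, WT replicate 3 or ID3-KO replicate 1), and in U2OS 12 to 83 higher and 0 to 8 lower (12 higher without any 1 ID3-KO library, 23 and 24 without WT replicates 2 and 3, 83 higher and 8 lower without WT replicate 1). The U2OS interaction ran from 0 to 4 higher and 1 to 7 lower. The 4 and 7 were without untreated WT replicate 1, where 4.46% and 4.56% of all genes passed. It had 0 higher without any 1 of 10 other libraries. Only 1 gene was lower without treated WT replicate 3, untreated ID3-KO replicates 1 or 3 or treated ID3-KO replicate 3. Scaling by library totals alone moved the median of all genes for the difference between responses from −0.01 to −0.12 in WT and from −0.04 to −0.15 in ID3-KO, and DESeq2 moved that before recovery in WT from 0.01 to 0.11. Of the 267 genes, 48 had too few counts for a test of treatment.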
